A study of Mus musculus with 9 samples.

Results

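Glypicans and syndecans are the membrane-bound families of heparan sulfate proteoglycans, and their transcripts were followed here in tumours grown from MC38, a colon carcinoma line of the mouse. The 8 genes described, Gpc1, Gpc3, Gpc4 and Gpc6 among glypicans and Sdc1, Sdc2, Sdc3 and Sdc4 among syndecans, were found by symbol among the 42454 gene names of the count tables. The family was selected on the CPM of Gpc6, which was higher in knockout tumours, so the contrast between the groups is a description for all 8, and the counts of test calls given for them below carry no evidence. The study set 5 tumours of MC38 cells with a knockout of CD43 (CD43-KO) against 4 tumours of Vec-MC38 cells, whose genotype is labelled WT (Vec). All tumours grew in C57BL/6J mice and were taken at day 21 after inoculation. No genetic change is listed for the mice, so leukocytes, fibroblasts and vessels of the host would carry an intact Spn, the gene of CD43. The sources used here do not give how the knockout was made, whether that line is 1 clone, or the sex and age of the mice. They also do not state that each tumour came from a mouse of its own, so p-values measure only the spread between these samples, and replicate numbers only name them.

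Each of these proteoglycans is a core protein that carries long sulfated sugar chains. Glypicans are held to the outer membrane leaflet by a lipid anchor, while syndecans span the membrane and reach the cytoskeleton through a short tail. The chains bind growth factors, morphogens and chemokines and act as coreceptors for them, which is why the family is studied in tumours, in wound repair and in leukocyte traffic. The sulfation pattern of the chains sets what they bind, and it is written by sulfotransferases and edited at the cell surface by sulfatases and heparanase.

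Total counts were between 44814061 and 62194418 in CD43-KO libraries and between 60751738 and 72114385 in Vec libraries. All levels are CPM, counts scaled to a common library size after TMM correction. Spn was at 25.6, 33.6, 31.2, 23.0 and 6.81 CPM in CD43-KO replicates 1 to 5, against 41.0, 43.7, 44.6 and 53.8 CPM in Vec replicates 1 to 4. The groups did not overlap, and the edgeR adjusted p was 0.280. CD43-KO replicate 3 stood apart, with summed markers of skeletal muscle at 1116 CPM and of adipocytes at 482 CPM, against 67.4 to 116 CPM and 3.58 to 32.1 CPM in the other 8 tumours. The epithelial markers Krt8 and Krt18, which would mark a carcinoma, were near 0, with highest values of 0.139 and 0.203 CPM in CD43-KO tumours and of 0.149 and 0.0845 CPM in Vec tumours. Epcam was at 0.220 to 1.21 CPM in CD43-KO tumours and at 0.238 to 1.41 CPM in Vec tumours, and Cdh1 at 6.42 to 14.8 CPM in CD43-KO tumours and at 7.96 to 13.6 CPM in Vec tumours. In whole tumour RNA, fewer cells of a type and less RNA per cell cannot be told apart.

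Levels within the family were compared as CPM per kilobase of annotated exon (GENCODE M21, build GRCm38), since only a level per length can be set against that of another gene. Sdc4, a syndecan of focal adhesions found in most cell types, was the most abundant, at 91.3 ± 5.94 CPM per kb in CD43-KO tumours and 105 ± 12.7 CPM per kb in Vec tumours (SD, n = 5 and n = 4, as in all values below). Sdc2, Sdc1 and Gpc1 followed at similar levels and their ranges over the 9 tumours overlapped. Sdc2, a syndecan of mesenchymal and endothelial cells, was at 27.8 ± 2.89 CPM per kb in CD43-KO tumours and 43.1 ± 6.48 CPM per kb in Vec tumours. Sdc1, the main epithelial syndecan and a surface marker of plasma cells under the name CD138, was at 31.5 ± 1.53 CPM per kb in CD43-KO tumours and 29.4 ± 2.51 CPM per kb in Vec tumours. Gpc1, the most widely expressed glypican, was at 25.7 ± 4.44 CPM per kb in CD43-KO tumours and 31.9 ± 2.35 CPM per kb in Vec tumours.

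The other 4 genes lay well below. For Sdc3 this holds without a second entry of the gene, a copy name described further on. Sdc3, best known from the nervous system, was at 9.27 ± 2.87 CPM per kb in CD43-KO tumours and 6.25 ± 0.573 CPM per kb in Vec tumours. Gpc3, a glypican of fetal tissues that is raised in human liver cancer, and Gpc4 could not be ranked against each other, as Gpc3 was the higher in 2 of 9 tumours. Their levels were 1.27 ± 1.06 and 1.15 ± 0.545 CPM per kb in CD43-KO tumours, and 0.843 ± 0.318 and 0.930 ± 0.103 CPM per kb in Vec tumours. Gpc6, a glypican needed for growth of the long bones in humans, was the least abundant, at 0.410 ± 0.135 CPM per kb in CD43-KO tumours and 0.177 ± 0.0303 CPM per kb in Vec tumours. Gpc4 exceeded it in all 9 tumours, by between 1.68 and 7.59 times. With the copy name of Sdc3 left out, 3 neighbouring pairs in this order of levels had ranges over the 9 tumours that overlapped. They were Sdc2 with Sdc1, Sdc1 with Gpc1 and Gpc3 with Gpc4. Sdc1 exceeded Gpc1 in 5 of 5 CD43-KO tumours and in 1 of 4 Vec tumours.

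**Figure D1:**
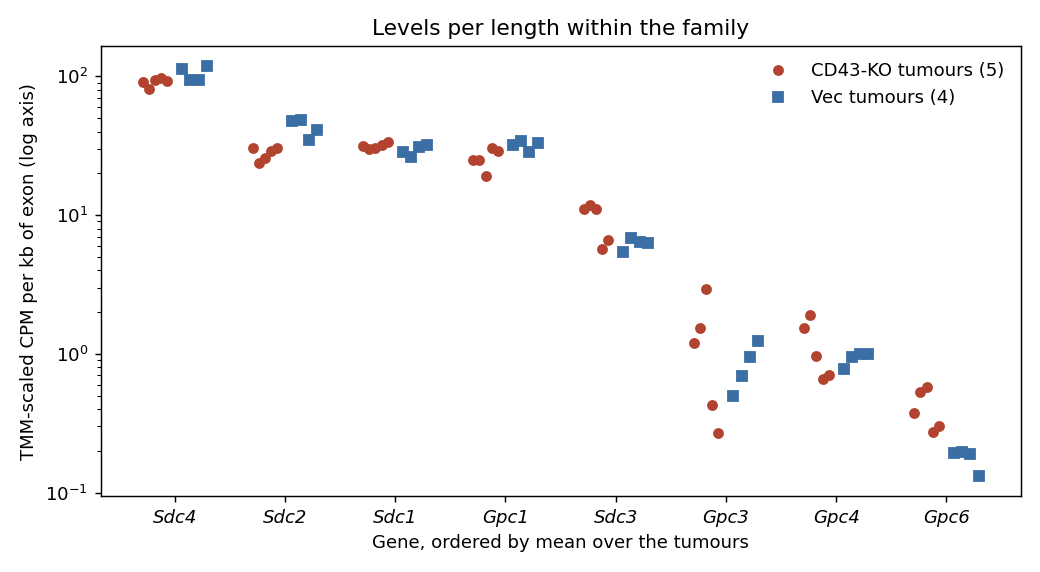
Level of each gene per kilobase of exon on a log axis, with 1 point per tumour and genes ordered by their mean over 9 tumours. Sdc4 lies above all others, Sdc2, Sdc1 and Gpc1 share a range, and Gpc6 lies lowest, with its 5 CD43-KO points above its 4 Vec points.

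Syndecans made up most of the family's transcripts in every tumour. Their share of the summed level per kb was 83.6% to 87.3% in CD43-KO tumours and 83.0% to 85.3% in Vec tumours, and Sdc4 alone gave 46.2% to 50.9% in CD43-KO tumours and 44.2% to 50.7% in Vec tumours. Gpc1 gave 81.0% to 95.8% of the glypican level in CD43-KO tumours and 93.0% to 95.6% in Vec tumours. The sum over the 8 genes, without the copy name of Sdc3, was 176 to 195 CPM per kb in CD43-KO tumours, below the 197 to 232.5 CPM per kb in Vec tumours. The abundant genes weigh most in it, among them Sdc2, at 23.7 to 30.3 CPM per kb in CD43-KO tumours and 34.9 to 48.6 CPM per kb in Vec tumours. The lower sum does not give the sign gene by gene, as 5 of the 8 log2 fold changes lay above 0. Among these 5 are Gpc6, which chose the family, and Gpc3 and Gpc4, whose values were smaller than their SE. Gpc6 made up 0.141% to 0.311% of that sum in CD43-KO tumours and 0.0569% to 0.0955% in Vec tumours.

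Sequences at the RefSeq start sites are shown for Sdc4, the most abundant gene, and for Gpc4 and Gpc3, low glypicans that neighbour each other on the chromosome. They are the 250 bases before the start in the RefSeq promoter table (GRCm38.p6), written 5′ to 3′ on the gene's own strand, with matches to the GC box (GGGCGG or CCGCCC) in capitals. Of the 8 genes, 5 had an entry (Gpc3, Gpc4, Sdc1, Sdc3 and Sdc4), and Gpc1, Gpc6 and Sdc2 had none. The windows of Sdc4 and Gpc4 lie within the gene spans that GENCODE M21 gives, whose outermost starts are farther upstream, while that of Gpc3 lies outside its span.
Sdc4, chr2:164443189-164443438, minus strand: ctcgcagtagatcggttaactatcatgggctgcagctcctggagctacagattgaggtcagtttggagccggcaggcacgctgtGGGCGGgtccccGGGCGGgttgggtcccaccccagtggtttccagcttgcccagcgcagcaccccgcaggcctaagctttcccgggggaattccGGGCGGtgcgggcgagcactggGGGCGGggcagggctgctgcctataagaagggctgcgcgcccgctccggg
Gpc4, chrX:52164924-52165173, minus strand: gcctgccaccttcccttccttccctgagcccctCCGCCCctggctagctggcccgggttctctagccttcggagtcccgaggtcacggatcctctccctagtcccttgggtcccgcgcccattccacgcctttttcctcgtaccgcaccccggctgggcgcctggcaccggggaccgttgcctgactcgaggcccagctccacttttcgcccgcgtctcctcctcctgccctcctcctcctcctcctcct
Gpc3, chrX:52613975-52614224, minus strand: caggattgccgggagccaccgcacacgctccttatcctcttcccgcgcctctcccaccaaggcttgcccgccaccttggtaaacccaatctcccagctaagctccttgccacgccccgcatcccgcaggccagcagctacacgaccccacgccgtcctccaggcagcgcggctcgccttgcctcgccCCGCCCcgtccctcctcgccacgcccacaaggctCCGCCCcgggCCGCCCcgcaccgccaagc

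The GC box was found 4 times before Sdc4, 3 times before Gpc3 and 1 time before Gpc4. Of 32817 upstream windows of the same length in the table, 32.7% held it. All 3 windows were rich in G and C, at 68.0%, 71.6% and 68.4% for Sdc4, Gpc3 and Gpc4, against a median of 52.4% over the table. The TATA box letters (TATAAA or TTTATA, in 12.4% of windows) and the AP-1 letters (TGACTCA or TGAGTCA, in 4.46% of windows) were in none of the 5 windows. Matches were counted on both strands and at every start, and a match is a description of letters.

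Between the groups, all Gpc6 values of CD43-KO lay above, and all Sdc2 values of CD43-KO below, those of Vec, and the other 6 genes overlapped. This is 1 of 8 genes wholly above Vec, where 2.08% of the 18243 genes tested were, and 1 of 8 wholly below, where 3.50% were. All 8 genes passed the filter on low counts. The edgeR quasi-likelihood test called none of them at an adjusted p under 0.05, and it called 0% of all genes, while 2806 genes had an unadjusted p under 0.05. DESeq2 gave an adjusted p to 16733 of the 18243 genes. It called 612, 3.35% of the 18243, and limma called 562. Of the 8 genes, DESeq2 called 2, Gpc6 and Sdc2. The family was chosen by values of this same contrast, so nothing is read from them. Of the 8 log2 fold changes, 5 lay above 0 and 3 below, with a median of 0.21 beside 0.03 over all genes tested.

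**Figure D2:**
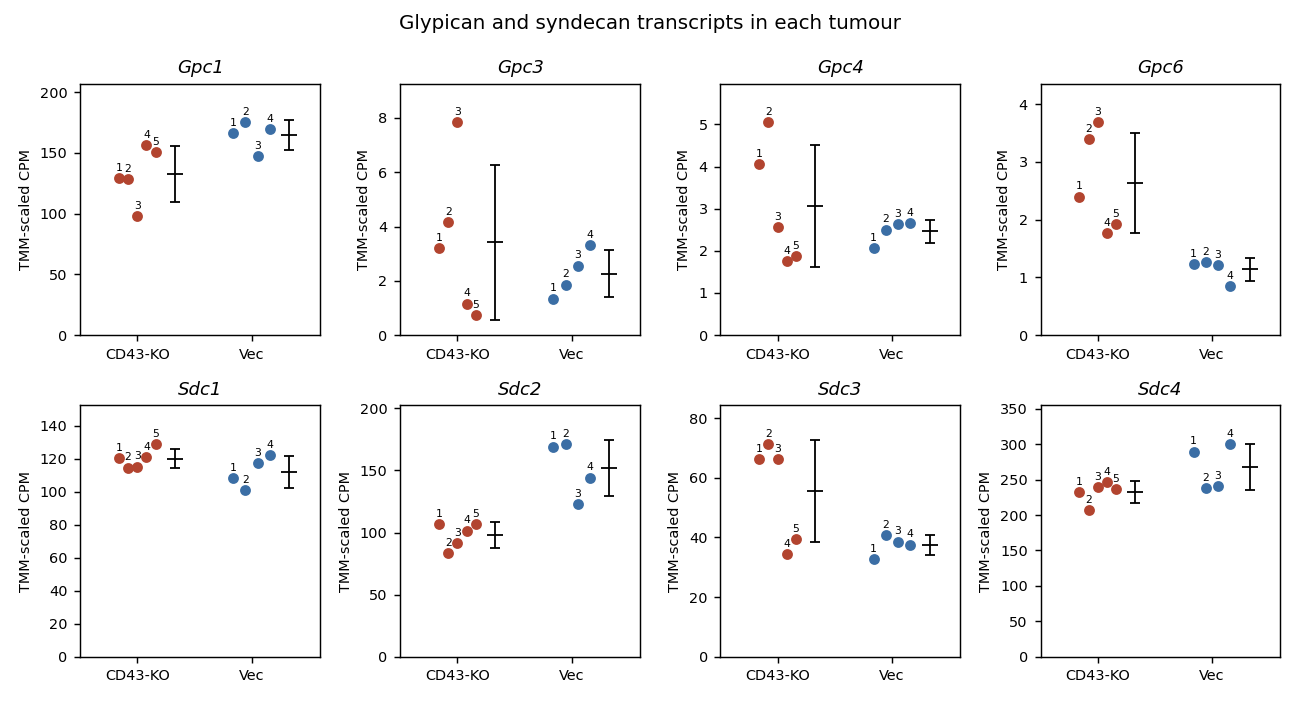
TMM-scaled CPM of each gene, with 1 numbered point per tumour (the number is the replicate) and the mean with its SD to the right of each group. The groups are apart in Gpc6 (CD43-KO above Vec) and in Sdc2 (CD43-KO below Vec). In Gpc3 and Gpc4 the 5 CD43-KO tumours spread over both sides of the Vec tumours, and in Sdc3 they lie above or among them.

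Among glypicans, Gpc6 (chromosome 14, 116925315 to 117976544, GRCm38) had the widest separation. It was at 2.40, 3.39, 3.69, 1.77 and 1.93 CPM in CD43-KO replicates 1 to 5, against 1.23, 1.27, 1.21 and 0.850 CPM in Vec replicates 1 to 4. The lowest CD43-KO tumour thus lay above the highest Vec tumour, by the values that chose the gene. The means were 2.64 ± 0.865 CPM in CD43-KO and 1.14 ± 0.194 CPM in Vec tumours, a log2 fold change of 1.21 ± 0.28 (SE). These levels rest on few reads, with 104 to 220 counts in CD43-KO libraries and 46 to 86 counts in Vec libraries. Leaving out each tumour in turn gave log2 fold changes between 1.05 and 1.32.

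Gpc1 (chromosome 1, 92831645 to 92860779), which can act as a coreceptor of fibroblast growth factors, had a lower mean in CD43-KO tumours. It was at 129, 128, 98.2, 156 and 150.4 CPM in CD43-KO replicates 1 to 5, against 166, 175, 147 and 169.8 CPM in Vec replicates 1 to 4. CD43-KO replicates 1 to 3 lay below every Vec tumour and replicates 4 and 5 lay within the Vec range. The log2 fold change was -0.31 ± 0.13 (SE). Of its exonic bases 18.9% also lie in exons of Ankmy1 on the opposite strand, whose level was 0.101 to 0.929 CPM in CD43-KO tumours and 0.111 to 0.223 CPM in Vec tumours.

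Gpc3 and Gpc4 are neighbours on the X chromosome, 107 kb apart (52272426 to 52613950 and 52053021 to 52165252). Gpc3 restrains Hedgehog signalling in mouse development, and Gpc4 is released by astrocytes to support synapse formation. Gpc3 was at 3.21, 4.16, 7.85, 1.16 and 0.727 CPM in CD43-KO replicates 1 to 5, against 1.34, 1.86, 2.56 and 3.31 CPM in Vec replicates 1 to 4. Replicates 2 and 3 of CD43-KO lay above every Vec tumour and replicates 4 and 5 below every Vec tumour. Its log2 fold change of 0.59 ± 0.61 (SE) was 0.02 without CD43-KO replicate 3, the tumour rich in muscle and fat transcripts.

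Gpc4 was at 4.06, 5.06, 2.55, 1.75 and 1.88 CPM in CD43-KO replicates 1 to 5, against 2.07, 2.50, 2.63 and 2.66 CPM in Vec replicates 1 to 4. Here CD43-KO replicates 1 and 2 lay above Vec and replicates 4 and 5 below it. The log2 fold change was 0.31 ± 0.32 (SE), and it was 0.06 without CD43-KO replicate 2 and 0.19 without CD43-KO replicate 1. The next tested protein-coding gene beyond Gpc4, at 371 kb, is Hs6st2, which encodes a 6-O-sulfotransferase of heparan sulfate. It was at 1.89 ± 0.649 CPM in CD43-KO tumours and 1.35 ± 0.246 CPM in Vec tumours (edgeR adjusted p = 0.436). On the other side of Gpc3, at 298 kb, Phf6 was at 53.2 ± 4.68 CPM in CD43-KO tumours and 48.8 ± 4.18 CPM in Vec tumours (edgeR adjusted p = 0.550).

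The glypican genes outside the chosen set were low or without a count. Gpc2, a glypican of developing neurons, was at 0.852 ± 0.310 CPM in CD43-KO tumours and 0.467 ± 0.222 CPM in Vec tumours (edgeR adjusted p = 0.396), and 55.6% of its exonic bases are shared with the annotated gene Gm43720. Gpc5, which lies beside Gpc6 on chromosome 14, had a count of 0 in all 9 libraries, which allows at most 0.0458 to 0.0697 CPM in CD43-KO tumours and 0.0422 to 0.0554 CPM in Vec tumours at 3 counts per library. Such limits cover counting error only. Tgds, the first tested protein-coding gene on the other side of Gpc6 at 135 kb, was at 25.4 ± 3.33 CPM in CD43-KO tumours and 25.6 ± 2.66 CPM in Vec tumours. The nearest tested protein-coding gene on the side of Gpc5 was Spry2, at 11028 kb, with 22.5 ± 2.79 CPM in CD43-KO tumours and 26.9 ± 1.16 CPM in Vec tumours (edgeR adjusted p = 0.291).

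Among syndecans, Sdc2 (chromosome 15, 32920723 to 33034935) was lower in all 5 CD43-KO tumours. It was at 107, 83.7, 91.2, 101.5 and 107 CPM in CD43-KO replicates 1 to 5, against 169, 171.5, 123 and 144 CPM in Vec replicates 1 to 4. The highest CD43-KO tumour lay below Vec replicate 3, the lowest Vec tumour. The means were 98.0 ± 10.2 CPM in CD43-KO and 152 ± 22.9 CPM in Vec tumours, a log2 fold change of -0.63 ± 0.12 (SE), with -0.73 to -0.57 when each tumour was left out in turn. With 3929 to 6982 counts in CD43-KO libraries and 7807 to 11513 counts in Vec libraries, this gene is measured far more deeply than Gpc6. Its share of the family's level per kb, which draws on the same Sdc2 values, was 13.5% to 15.7% in CD43-KO tumours. In Vec tumours the share was higher, at 17.6% to 23.0%.

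Sdc1 (chromosome 12, 8771323 to 8793715) was the steadiest member, with an SD of 0.105 over the 9 tumours in log2 CPM. It was at 120.3, 115, 115, 121 and 129 CPM in CD43-KO replicates 1 to 5, against 108, 101, 117 and 122 CPM in Vec replicates 1 to 4. Only CD43-KO replicate 5 lay outside the Vec range, and the log2 fold change was 0.10 ± 0.08 (SE). Sdc1 is also a protein of plasma cells, whose markers summed to 13.1 to 77.1 CPM in CD43-KO tumours and 7.99 to 21.5 CPM in Vec tumours. Set against Sdc1 per kb, Sdc2 was the lower of the pair in all 5 CD43-KO tumours, at 0.789 to 0.958 of its level, and the higher in all 4 Vec tumours, at 1.13 to 1.84 times its level. As Sdc1 was steady, this ratio largely repeats the Sdc2 values above and adds no separate result.

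Sdc3 (chromosome 4, 130792537 to 130826319) split the CD43-KO tumours. It was at 66.2, 71.4, 66.2, 34.3 and 39.6 CPM in CD43-KO replicates 1 to 5, against 32.7, 40.8, 38.6 and 37.6 CPM in Vec replicates 1 to 4. The values of CD43-KO replicates 1 to 3 exceeded all 4 Vec values while replicates 4 and 5 lay among them, with a log2 fold change of 0.57 ± 0.22 (SE). The tables also list a copy name of this gene with 97.3% to 98.2% of its count in each library, so reads may be listed under both names, and Sdc3 is uncertain. With the copy added it would be at 11.3 to 23.6 CPM per kb in CD43-KO tumours and 10.8 to 13.5 CPM per kb in Vec tumours. The CD43-KO range would then overlap that of Gpc1. In CD43-KO replicate 3, Sdc3 would exceed Gpc1, at 21.9 against 19.0 CPM per kb. Of the exonic bases of Sdc3, 7.73% lie in exons of opposite-strand genes.

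Sdc4 (chromosome 2, 164424247 to 164443887), which joins integrins at focal adhesions, had a lower mean in CD43-KO tumours, 232 CPM against 267 CPM in Vec tumours. It was at 233, 207, 239, 247 and 237 CPM in CD43-KO replicates 1 to 5, against 289, 238, 241 and 300.5 CPM in Vec replicates 1 to 4. The groups overlapped, with CD43-KO replicates 1, 2 and 5 below every Vec tumour and a log2 fold change of -0.20 ± 0.10 (SE).

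**Figure D3:**
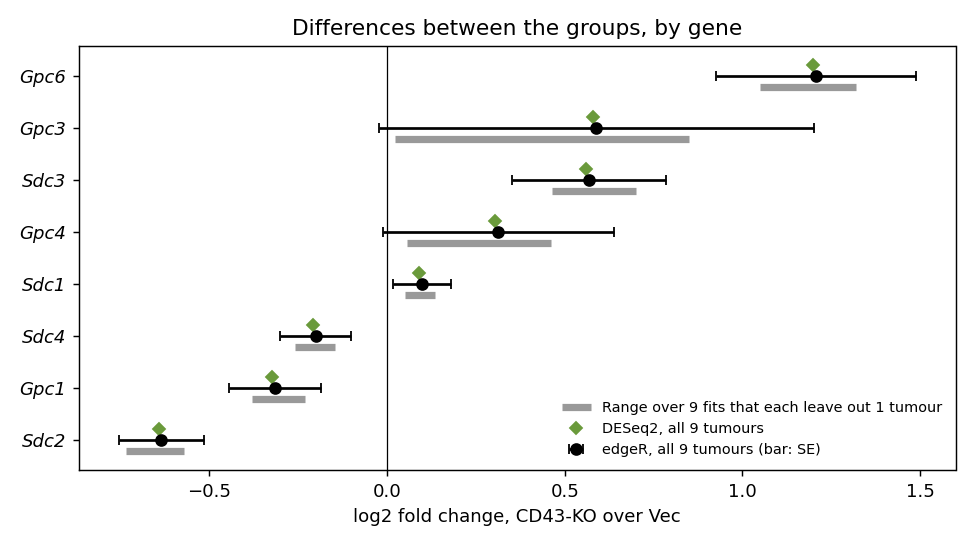
Log2 fold change of each gene, CD43-KO over Vec, with its SE from edgeR (black), the DESeq2 estimate (green) and the range over 9 fits that each leave out 1 tumour (grey). The grey range runs from 1.05 to 1.32 for Gpc6, from -0.73 to -0.57 for Sdc2 and, the widest of the 8, from 0.02 to 0.85 for Gpc3.

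The summed markers of host cells differed between the CD43-KO tumours. All 4 leukocyte markers, all 6 T cell markers and all 7 macrophage markers had log2 fold changes above 0, and none was at 0 CPM in all tumours. Of 4 tested neutrophil markers, 2 lay above 0 and 2 below. The 5 neutrophil markers listed summed to 13.4 to 88.1 CPM in CD43-KO tumours and 6.94 to 79.0 CPM in Vec tumours. The leukocyte markers summed to 489, 619 and 761 CPM in CD43-KO replicates 1, 2 and 3 and to 289 and 357 CPM in CD43-KO replicates 4 and 5, against 284 to 361 CPM in Vec tumours. Macrophage markers summed to 2385 to 9589 CPM in CD43-KO tumours and to 2579 to 4333 CPM in Vec tumours, and the highest sums were again in CD43-KO replicates 1, 2 and 3. Sdc3 and Gpc6 were highest in the same 3 tumours, Gpc1 was lowest in them, and the part of these markers in those values was not tested.

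In CD43-KO replicates 4 and 5, whose leukocyte sums lie within the Vec range, Gpc6 was at 1.77 and 1.93 CPM, above the 1.27 CPM of the highest Vec tumour, and Sdc2 was at 101.5 and 107 CPM, below the 123 CPM of the lowest. Other host sums of these tumours were outside the Vec range, with macrophage markers at 2385 CPM in CD43-KO replicate 4 and fibroblast markers low in both, and their part was not tested. The fibroblast markers summed to 3715, 5875, 3946, 2414 and 2162 CPM in CD43-KO replicates 1 to 5, against 3115 to 4357 CPM in Vec tumours. Of these 9 markers, 6 had a log2 fold change above 0. Sdc2 was at 83.7 CPM, its lowest, in CD43-KO replicate 2, where the fibroblast sum was highest. The endothelial markers summed to 52.3 to 121 CPM in CD43-KO tumours and 67.4 to 80.0 CPM in Vec tumours, and all 6 had log2 fold changes above 0. Gpc3 was at its highest, 7.85 CPM, in CD43-KO replicate 3 together with the muscle and adipocyte sums, and the part of those tissues was not tested. All 5 keratinocyte markers had log2 fold changes below 0, with a median of -1.30, and summed to 298 to 525 CPM in CD43-KO tumours and 342 to 863 CPM in Vec tumours. All 5 Schwann cell and nerve markers lay above 0 and summed to 10.8 to 42.4 CPM in CD43-KO tumours and 12.7 to 15.1 CPM in Vec tumours. The part of these markers in the levels of Sdc2, Gpc1, Sdc4 and the other genes was not tested either.

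**Figure D4:**
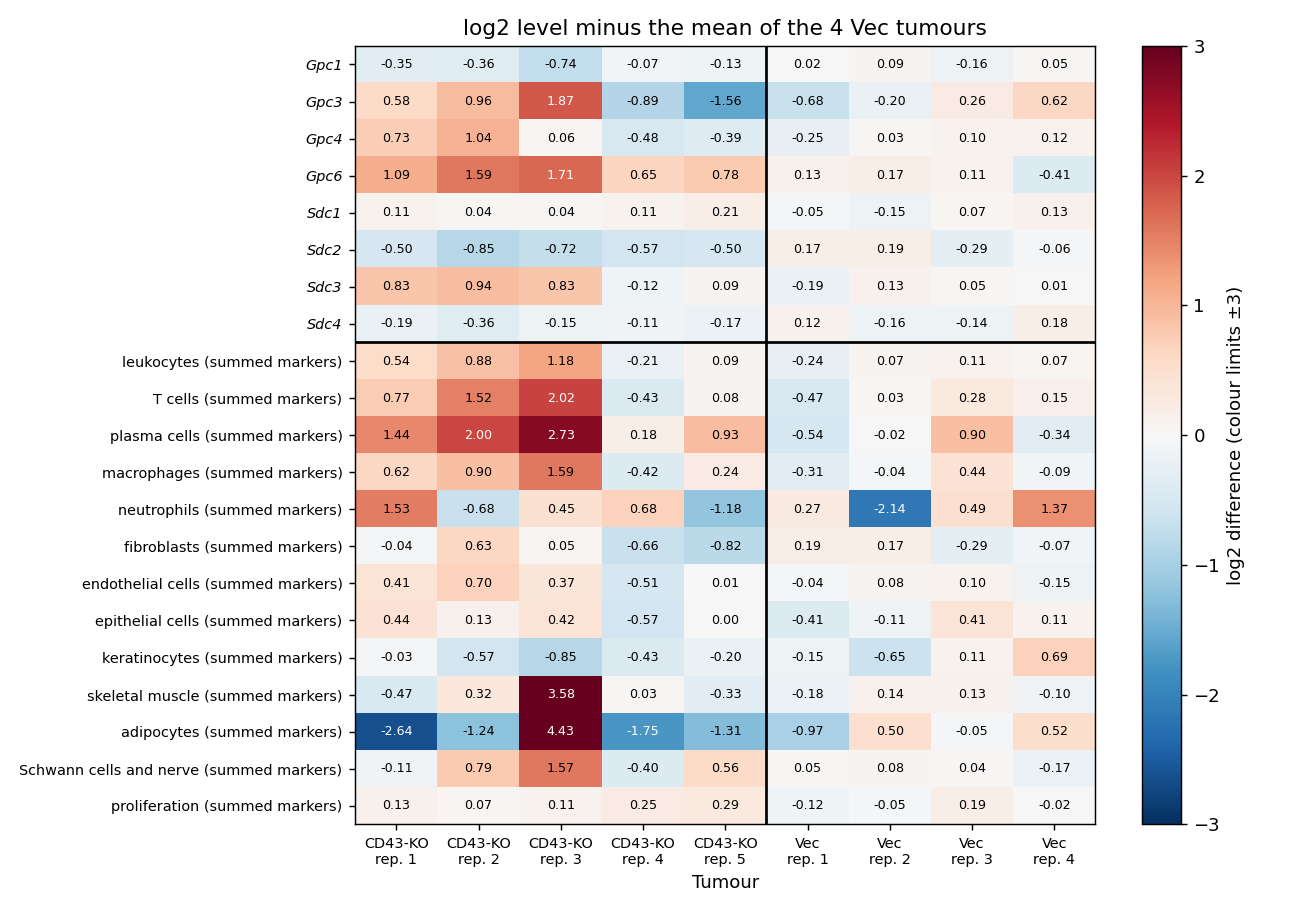
Log2 level in each tumour minus the mean of the 4 Vec tumours, for the 8 genes (top) and for the summed markers of each cell type (bottom), with CD43-KO tumours left of the black line. Gpc6 is positive and Sdc2 negative in all 5 CD43-KO tumours, while Sdc3 and the leukocyte, T cell and macrophage sums are higher in CD43-KO replicates 1 to 3 than in CD43-KO replicates 4 and 5.

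The genes whose profile over the 9 tumours came nearest to that of Gpc6 were sought among 12147 other protein-coding genes with a mean of at least 1 CPM, without predicted or clone names. Likeness was the root mean square distance between log2 levels, each centred on its own mean over the tumours. The nearest 5 were Itga1 (an integrin subunit that binds collagen), Iqgap2 (a scaffold protein), Sorl1 (a sorting receptor), Aatk (a kinase) and Adgrg5 (an adhesion G protein-coupled receptor), at distances of 0.20 to 0.24. Itga1 was at 9.88 ± 3.69 CPM in CD43-KO tumours and 4.84 ± 1.15 CPM in Vec tumours. A choice by likeness to Gpc6, itself chosen as higher in CD43-KO, favours such a difference, so nothing is read from it. The nearest family member, Sdc3, ranked 213 at a distance of 0.39, Gpc3 ranked 11204, and the farthest member, Sdc2, ranked 11590. This distance also grows with a difference in spread, and Gpc3 varied more than Gpc6 over the 9 tumours.

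Gpc3 had the largest SD of the family, 1.05 in log2 CPM over the 9 tumours. Its nearest profiles were those of Pamr1, Cd40 (a costimulatory receptor of antigen-presenting cells), Skap1 (a T cell adaptor), C1qtnf2 and the imprinted gene Ndn, at distances of 0.30 to 0.35. Cd40 was at 11.6, 14.2, 23.0, 5.55 and 4.12 CPM in CD43-KO replicates 1 to 5, against 5.02, 6.90, 6.94 and 8.83 CPM in Vec replicates 1 to 4. Within each group, the tumours stood in the same order for Cd40 as for Gpc3, which a choice by likeness of profile favours.

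The other genes of the pathway were taken as 10 lists with 113 genes, of which 98 were tested. The edgeR test called 0 of them and DESeq2 called 2, both higher, Sulf2 and Hbegf, a smaller share than the 3.35% called over all genes. The median log2 fold change over the 98 was 0.13, and 3 genes lay wholly above and 1 wholly below the Vec tumours, where 2.08% and 3.50% of all genes did.

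Sulf2 encodes an extracellular sulfatase that removes 6-O-sulfates from heparan sulfate chains at the cell surface. It was at 121, 103, 98.6, 91.9 and 122 CPM in CD43-KO replicates 1 to 5, against 71.4, 77.9, 80.7 and 64.3 CPM in Vec replicates 1 to 4. All CD43-KO tumours lay above all Vec tumours, by a log2 fold change of 0.54 ± 0.11 (SE), with an adjusted p of 0.147 by edgeR and of 0.0028 by DESeq2. The DESeq2 call held in 9 of 9 fits that each left out 1 tumour, with adjusted p between 0.000605 and 0.0413, and edgeR called it in none of them. Its relative Sulf1 was at 10.5 ± 5.80 CPM in CD43-KO tumours and 5.99 ± 1.11 CPM in Vec tumours (edgeR adjusted p = 0.308). Of the 10 tested genes of chain editing and breakdown, 7 had log2 fold changes above 0, with a median of 0.27. Of the exonic bases of Sulf2, 2.62% lie in exons of Ncoa3 on the opposite strand.

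Hbegf, the heparin-binding ligand of the epidermal growth factor receptor, was at 28.5, 29.2, 35.0, 30.9 and 30.3 CPM in CD43-KO replicates 1 to 5, against 19.6, 19.0, 26.9 and 20.3 CPM in Vec replicates 1 to 4. The groups did not overlap, and the log2 fold change was 0.52 ± 0.12 (SE), with an adjusted p of 0.168 by edgeR and of 0.0122 by DESeq2. The DESeq2 call was lost without Vec replicate 1, 2 or 4, with adjusted p up to 0.0992. Of the 22 tested heparan sulfate-binding factors 15 had log2 fold changes above 0, with a median of 0.42. Ptn, a neurite growth factor that binds syndecans, was at 4.42 ± 3.49 CPM in CD43-KO and 1.89 ± 1.65 CPM in Vec tumours, and Vegfa, the vessel growth factor, was at 326 ± 88.3 CPM in CD43-KO and 348 ± 43.2 CPM in Vec tumours. Fgf9 was at 0 to 0.279 CPM in CD43-KO tumours and 0.104 to 0.591 CPM in Vec tumours. None of these 3 was called by either tool, and Fgf9 had no DESeq2 adjusted p.

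No gene of chain synthesis was called by edgeR or DESeq2. Of the 7 tested genes of the linker region 6 lay below 0, with a median of -0.13. Pxylp1, the phosphatase that lets the linker be extended, was at 9.25 ± 1.25 CPM in CD43-KO and 11.3 ± 0.613 CPM in Vec tumours without overlap (edgeR adjusted p = 0.320), and the linker transferase B3gat3 was at 47.2 ± 4.52 CPM in CD43-KO and 54.9 ± 3.68 CPM in Vec tumours (edgeR adjusted p = 0.303). Xylt1, which starts the linker, was at 2.55 ± 1.12 CPM in CD43-KO and 1.84 ± 0.745 CPM in Vec tumours. The polymerase genes Ext1 and Ext2 were at 54.1 ± 5.50 and 64.0 ± 8.83 CPM in CD43-KO tumours, and at 60.0 ± 3.16 and 63.3 ± 10.3 CPM in Vec tumours. Extl1, a related transferase, was at 5.34 ± 1.33 CPM in CD43-KO and 3.51 ± 0.351 CPM in Vec tumours without overlap (edgeR adjusted p = 0.249).

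Of 16 sulfation and epimerisation genes 9 were tested, with a median of 0.17. Ndst1, which begins sulfation of the chain, was at 71.0 ± 27.5 CPM in CD43-KO and 75.9 ± 10.5 CPM in Vec tumours, with 26.9 CPM in CD43-KO replicate 5. The 3-O-sulfotransferase genes Hs3st1 and Hs3st3b1 were at 1.04 ± 0.572 and 2.19 ± 0.955 CPM in CD43-KO tumours, and at 0.573 ± 0.235 and 1.27 ± 0.338 CPM in Vec tumours, with edgeR adjusted p of 0.387 and 0.335. Among 7 other core proteins, Hspg2, the basement membrane proteoglycan perlecan, was at 511 ± 121 CPM in CD43-KO and 441 ± 120.1 CPM in Vec tumours. Srgn, the granule proteoglycan of leukocytes, was at 107 ± 36.6 CPM in CD43-KO and 79.5 ± 48.5 CPM in Vec tumours. The coreceptor gene Nrp1 was at 30.8 ± 15.4 CPM in CD43-KO and 22.3 ± 2.34 CPM in Vec tumours. None of the 7 was called by edgeR or DESeq2.

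Of the 6 tested genes for release of core proteins, Mmp2, a gelatinase, was at 388 ± 71.0 CPM in CD43-KO and 560.3 ± 100.4 CPM in Vec tumours (edgeR adjusted p = 0.230, DESeq2 adjusted p = 0.060). Gpld1, a phospholipase that cuts lipid anchors, was at 0.449 ± 0.122 CPM in CD43-KO and 0.550 ± 0.148 CPM in Vec tumours, and Notum, also in this list, did not pass the filter on low counts. Among 8 partners of the syndecan tail, Tiam1, an activator of Rac, was at 14.1 ± 1.84 CPM in CD43-KO and 10.4 ± 1.70 CPM in Vec tumours (edgeR adjusted p = 0.246). Sdcbp2, a syntenin gene, was at 3.19 ± 1.34 CPM in CD43-KO and 2.47 ± 0.848 CPM in Vec tumours. The membrane linker Ezr was at 470.5 ± 75.6 CPM in CD43-KO and 457 ± 17.8 CPM in Vec tumours. Of 23 tested receptors 16 lay above 0 with a median of 0.10. The Wnt receptor Fzd1 was at 19.6 ± 6.40 CPM in CD43-KO and 12.0 ± 2.33 CPM in Vec tumours (edgeR adjusted p = 0.252), and Robo1, a receptor of Slit proteins, at 1.00 ± 0.645 CPM in CD43-KO and 0.587 ± 0.281 CPM in Vec tumours. Fgfr1, a receptor of fibroblast growth factors, was at 216 ± 56.9 CPM in CD43-KO and 228 ± 27.2 CPM in Vec tumours, and DESeq2 called none of the receptors.

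**Figure D5:**
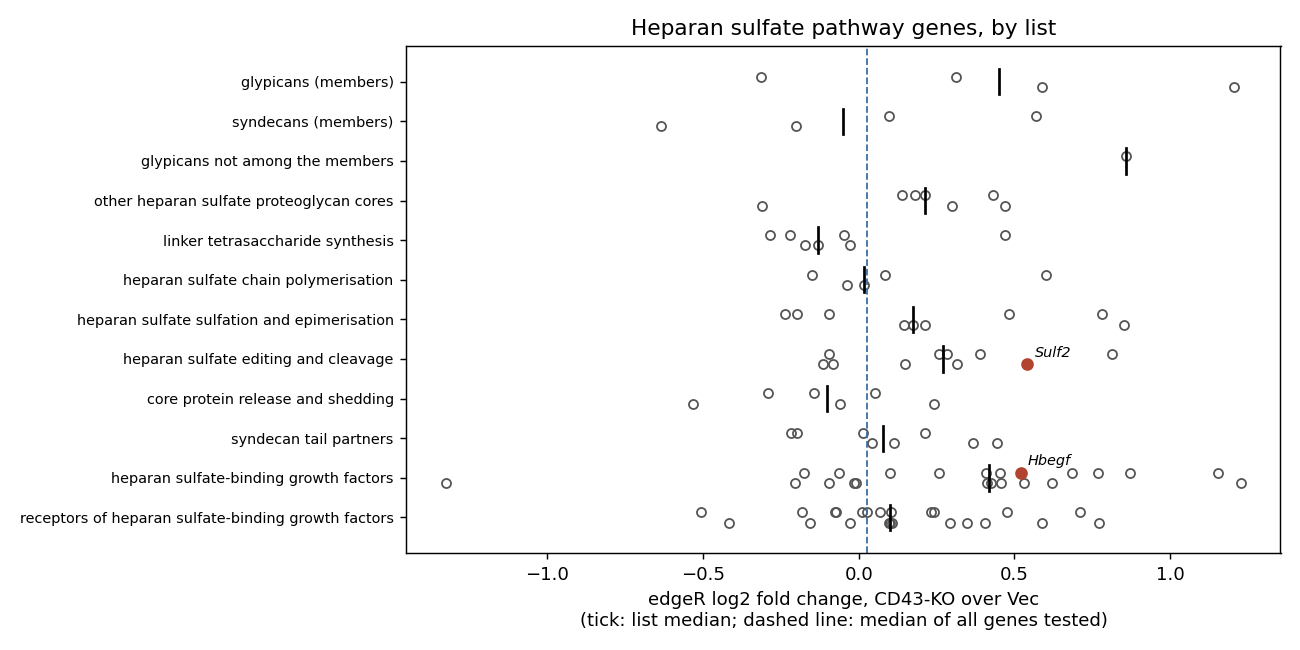
Log2 fold change (CD43-KO over Vec, edgeR) of every tested gene in each list, with 1 circle per gene, a tick at the list median and a dashed line at 0.03, the median of all genes tested. Filled circles mark the 2 pathway genes called by DESeq2, Sulf2 and Hbegf, and the glypicans and syndecans are unfilled.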

How the data were processed

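The authors deposited 1 table per tumour with whole-number counts per gene name, not scaled to depth, per the file headers and values. The submitters' processing notes name HISAT2 2.1.0, StringTie 1.3.5, DESeq2 and GRCm38 without a role or order. The counter, annotation, strand setting and filters are not stated in these sources, so reads of opposite-strand genes cannot be told apart. All 9 tables held the same 42454 names, of which 2346 carried a copy suffix and 26 had become dates. More names had a count of 2 than of 1 in every library, so counts may not be independent fragments. No pair of libraries within a group agreed within sampling noise (in 16 pairs, the chi-square divided by its degrees of freedom was at least 35.7).

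In R 4.3.3, filterByExpr (minimum count 10, minimum total 15) left 18243 names, scaled by TMM. The test was edgeR 4.0.16's quasi-likelihood F test, robust, with the group as the only term and Benjamini-Hochberg adjustment at 0.05; SEs are the log2 fold change over the square root of F. DESeq2 1.42.0, limma 3.58.1 voom with sample weights, other scalings and filters and leaving out each tumour were alternatives. Exon lengths are unions of GENCODE M21 exons, which may differ from the authors' annotation. Distances between profiles used log2 of CPM plus 0.05.

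The members and lists were chosen with earlier results of these data known. Named in the text are all members, Spn, Gpc2 and Gpc5, the profile and chromosome neighbours, and in each list the 2 genes with the largest absolute log2 fold change, the one with the highest CPM and any gene called by edgeR or DESeq2. A gene that this rule names is not reported here.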

Additional observations from a re-analysis of the deposited data

Results flagged for a closer look

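Among 37 genes named here, the gap between 1 tumour and the nearest other of its group was compared with the range of that group, in 74 groups of values, and 5 values stood out. Chance gives about 1 such value in 20 groups. Vec replicate 4 had the lowest Gpc6 level, 0.850 CPM against 1.21 to 1.27 CPM in the other Vec tumours, and without it the log2 fold change of Gpc6 was 1.08. CD43-KO replicate 3 stood apart in B3gat3, at 55.0 CPM against 43.6 to 46.7 CPM for the rest of its group. The same tumour stood apart in Ext1, at 44.3 CPM against 55.8 to 57.0 CPM, and in Mmp2, at 265 CPM against 406 to 452 CPM. Vec replicate 3 had the highest Hbegf level of its group, 26.9 CPM against 19.0 to 20.3 CPM.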

How the results depend on the processing

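The log2 fold changes of all 8 genes kept their sign in each of 15 alternatives run for them. All moved by less than 1 SD between tumours of a group. That limit is wide, and leaving out 1 tumour can hardly exceed it, so no stability is read from it. The value of Gpc3 fell from 0.59 to 0.02 without CD43-KO replicate 3, and that of Gpc4 from 0.31 to 0.06 without CD43-KO replicate 2. That of Gpc6 was between 1.02 (limma) and 1.32 (without CD43-KO replicate 4). The genes called over all genes tested numbered 612 with DESeq2, 562 with limma, 1 without a filter and 0 with the other scalings and the stricter filter, against 0 in the edgeR fit reported. Scaling by library size only shifted the median of all genes to 0.11, beside 0.03. Leaving out each tumour gave 0 to 29 genes with edgeR and, as an alternative chosen after seeing the data, with DESeq2 210, 227, 1204, 1180 and 469 without CD43-KO replicates 1 to 5 and 195, 283, 1101 and 272 without Vec replicates 1 to 4. Of the 8 members, whose calls are no evidence as this contrast chose the family, DESeq2 called 2 and limma 2, and with a tumour left out edgeR called 0 and DESeq2 2, or 3 without CD43-KO replicate 4. Of the pathway genes, DESeq2 called 2 and limma 3, and with a tumour left out edgeR called 0 and DESeq2 1 to 6 (5 without Vec replicate 3). The cause of these moves was not tested. No paired analysis was possible because replicate numbers follow the order of deposition and link no tumours. Gpc6, Gpc3 and Gpc4 rest on 43 to 338 counts per library, and the other members on at least 2015, so relative counting error is larger for those 3 glypicans.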
